A study of Rattus norvegicus with 8 samples.

Results

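Mitosis and spindle genes were compared between carotid arteries 2 weeks after intimal injury and undamaged carotid arteries of the rat. The 36 genes were chosen by symbol as G2/M cyclins, mitotic kinases, kinesins, kinetochore proteins and cytokinesis proteins by their known roles, and all 36 were found among the 37209 genes of the count table. The arteries came from males of the Sprague-Dawley strain weighing 400 g on average, and the labels name no transgene or deletion. In the 4 injured samples, the left carotid artery had been injured with a balloon catheter, and the tissue was harvested after 2 weeks. The 4 control samples were the untouched right carotid arteries, which served as self-controls. The labels do not say whether the 4 arteries of a group came from 4 animals or how same-numbered arteries were related, so a p-value here measures the spread between these samples. RNA from bulk artery tissue was sequenced.

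The total count was between 13470754 and 15276952 in the control arteries and between 11459632 and 16658089 in the injured arteries. Levels are given as CPM, the count divided by the library total after edgeR's TMM scaling and multiplied by 1000000. A count of 0 allows up to 3 counts, which is 0.18 to 0.262 CPM before that scaling and covers counting error only. The 10 contractile smooth muscle genes summed to between 11498 and 54362 CPM in every artery, so the defining genes of the arterial media were present, and 5 cerebral cortex neuron genes to at most 2.92 CPM, although the extraction text of the labels names prefrontal cortex. Control artery 4 stood apart from the other controls, with a correlation of log2 CPM across genes of 0.83 to 0.852 against 0.976 to 0.978 among the others. Its 7 sympathetic neuron genes summed to 9114 CPM. Injured artery 3 followed with 2266 CPM and injured artery 1 with 155 CPM, and the others had at most 7.76 CPM. Counts of called genes are therefore also given without control artery 4 and injured artery 3.

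Cells that leave quiescence pass through DNA replication and then G2 before they divide. Entry into mitosis is driven by CDK1 bound to cyclin A or cyclin B, and the kinases PLK1 and Aurora then build the spindle and align the chromosomes at their kinetochores. The spindle checkpoint holds the anaphase-promoting complex until every chromosome is attached, after which cyclins are destroyed and the cell divides. Most of these genes are transcribed mainly in G2 and mitosis, under the MuvB complex, B-MYB and FOXM1, so their mRNA is low in resting tissue such as the normal arterial media. Division of vascular smooth muscle cells in the media and neointima is a known response to balloon injury of the rat carotid artery.

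Most of the mitosis and spindle genes were higher in the injured arteries. Of the 36 genes, 30 were called higher and none lower at a false discovery rate (FDR) under 0.05 and a fold change above 2, whereas 8.31% of the 14359 genes tested were called higher and 2.57% lower. Even at an unadjusted p under 0.05, edgeR placed 0 of the 36 genes lower, and DESeq2 also called 0 lower. In bulk tissue, a larger number of dividing cells and more mRNA per cell cannot be told apart. In 32 of the 36 genes every injured artery lay above every control artery, against 14.2% of all genes tested. In 14 of them the lowest injured artery had at least 4 times the CPM of the highest control, against 2.27% of all genes tested. The CPM of all 36 genes summed to 47.5, 61.9, 64.2 and 77.8 in control arteries 1 to 4 and to 257, 374, 255 and 325 in injured arteries 1 to 4. Of the 77.8 CPM in control artery 4, 37.2 came from Kif2c alone, and without that gene the sum was 53.4 ± 11.2 CPM in the control group against 294 ± 61.7 CPM in the injured group (mean ± SD, n = 4 each). With control artery 4 and injured artery 3 both left out, 32 of the 36 genes were called higher, where 12.5% of 14366 genes were. Without control artery 4 alone, 30 were called higher (12.3% of all genes then tested), and without injured artery 2, which gave the fewest, 25 (6.46%). DESeq2 called 33 of them higher (9.61% of all genes), edgeR without a count filter 27 (5.02%), with the replicate number as a block 26 (6.64%) and against a fold change of 2 as the null 24 (4.18%).

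**Figure D1:**
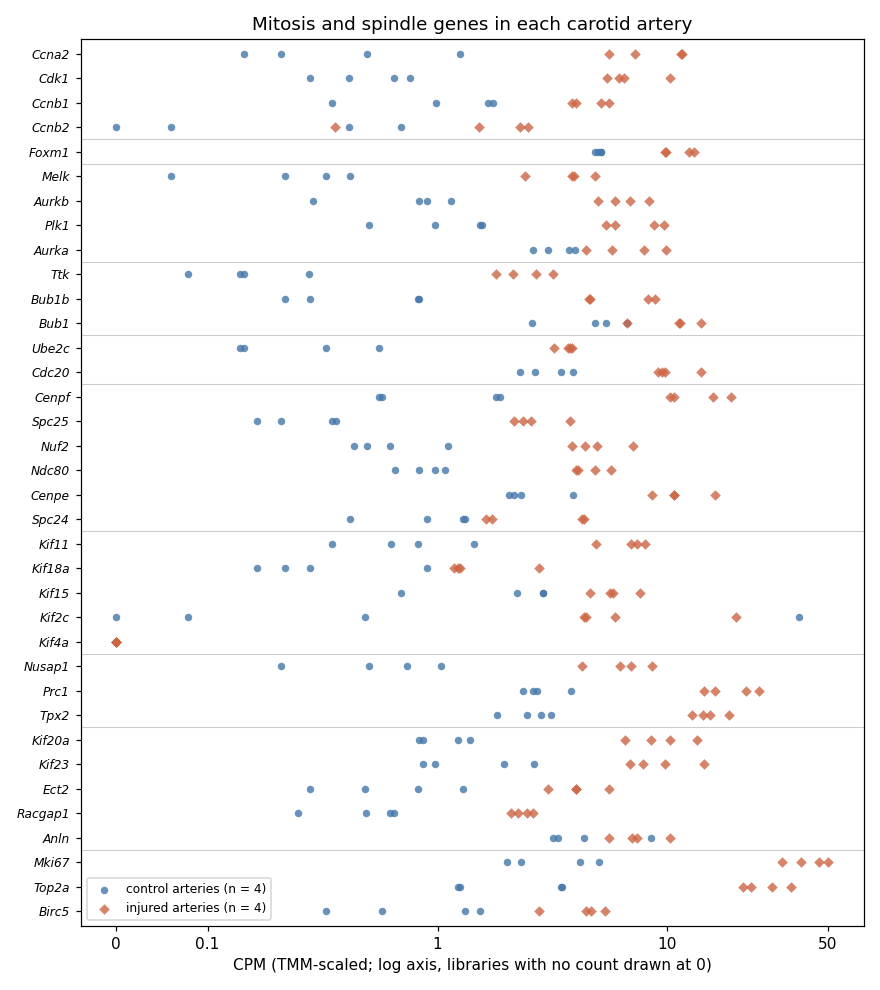
Each row is a mitosis or spindle gene, grouped by role, and each point is the CPM of an artery on a log axis, with circles for the 4 control arteries and diamonds for the 4 injured arteries. In 32 of the 36 genes the diamonds all lie to the right of the circles, and Kif2c has its highest point, 37.2 CPM, in control artery 4.

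The low counts of the controls set a limit on these numbers. The count filter, which asked for a CPM of about 0.67 in at least 4 libraries, kept 34 of the 36 genes, and Ccnb2 and Kif4a were not tested. Of the 34 genes, 5 reached that level in no control artery, so that they passed through the injured arteries alone and had to differ. These were Melk, Racgap1, Spc25, Ttk and Ube2c, and all 5 are among the genes called higher. Another 16 reached it in only some of the controls. The remaining 13 reached it in all 8 arteries. These 13 genes also had at least 10 counts in every artery, and 12 of them were called higher when the test was restricted to such genes, against 5.8% of the 12334 genes then tested. The exception was Anln. The median log2 fold change of the 34 tested genes was 2.65 and that of all 14359 genes was -0.06. A log2 fold change at least as high as 2.65 was found in 3.52% of all genes tested.

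Of the 4 genes of cyclins and CDK1, which set the timing of mitotic entry, 3 were called higher, and Ccnb2 did not pass the count filter. Ccna2, cyclin A2, which acts from S phase into early mitosis, had 0.144, 0.492, 1.25 and 0.208 CPM in control arteries 1 to 4 and 7.24, 11.5, 5.56 and 11.6 CPM in injured arteries 1 to 4. All injured arteries lay above all controls, and its log2 fold change of 4.07 (standard error 0.65, edgeR adjusted p = 0.0047) was the highest of the 34 tested genes. Cdk1, the kinase that both cyclin types activate, had 0.648, 0.410, 0.762 and 0.278 CPM in control arteries 1 to 4 and 5.44, 10.2, 6.18 and 6.46 CPM in injured arteries 1 to 4, without overlap. Its log2 fold change was 3.73 (standard error 0.38, edgeR adjusted p = 0.000713). Ccnb1, cyclin B1, which is destroyed at the onset of anaphase, had 1.66, 0.984, 0.346 and 1.74 CPM in control arteries 1 to 4 and 3.83, 3.99, 5.56 and 5.15 CPM in injured arteries 1 to 4. The groups did not overlap. The log2 fold change was 1.96 (standard error 0.45, edgeR adjusted p = 0.0211), and Ccnb1 was not called with the replicate number as a block (2.09, edgeR adjusted p = 0.0685). It was called in 5 of the 8 fits with an artery dropped. Ccnb2, cyclin B2, had 0, 5, 10 and 1 counts in control arteries 1 to 4 and 6, 34, 27 and 28 counts in injured arteries 1 to 4. Injured artery 1, with 0.359 CPM, lay within the range of the controls, and the exact two-sided permutation test of its log2 CPM over 70 relabellings gave p = 0.0857. DESeq2, which kept Ccnb2, called it higher (log2 fold change 2.48, adjusted p = 0.0498). With edgeR it passed the filter in 7 of the 8 fits that dropped an artery and was called in 0 of them, and it was called neither without a filter nor with the top 10 genes left out. The smallest p that 4 arteries against 4 allow in this permutation test is 0.0286. Any gene without overlap must reach it, so for the 32 such genes it only restates the lack of overlap.

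Foxm1, the transcription factor that activates many genes of this group in G2, rose by little more than the fold criterion and was the most even of the tested genes among the controls. It had 4.83, 5.003, 5.13 and 5.14 CPM in control arteries 1 to 4 and 9.75, 13.1, 9.88 and 12.4 CPM in injured arteries 1 to 4, so that the groups did not overlap. Its log2 fold change was 1.16 (standard error 0.17, edgeR adjusted p = 0.00288). Foxm1 was called in all 8 fits that dropped a single artery, but not in the test against a fold change of 2 (edgeR adjusted p = 0.634). Plk1, the polo kinase of centrosome maturation and mitotic entry, had 0.504, 1.56, 1.52 and 0.973 CPM in control arteries 1 to 4 and 5.38, 8.70, 5.90 and 9.65 CPM in injured arteries 1 to 4 and a log2 fold change of 2.69 (standard error 0.39, edgeR adjusted p = 0.00322). Both Aurora kinases were called higher. Aurkb, the kinase of the chromosomal passenger complex, rose from 0.793 ± 0.363 to 6.54 ± 1.43 CPM (mean ± SD, n = 4 each). Its log2 fold change was 3.03 (standard error 0.40, edgeR adjusted p = 0.00204). Aurka, the centrosomal and spindle pole kinase, had 2.59, 3.03, 3.74 and 3.96 CPM in control arteries 1 to 4 and 7.90, 9.87, 5.73 and 4.42 CPM in injured arteries 1 to 4, which is a log2 fold change of 1.06 (standard error 0.29, edgeR adjusted p = 0.0403). The gap between the groups was narrow, with the highest control at 3.96 CPM and the lowest injured artery at 4.42 CPM, and when arteries were dropped singly Aurka was called in 2 of 8 fits. It was not called with the block (edgeR adjusted p = 0.141). Melk, a kinase of dividing and progenitor cells, had 3, 4, 6 and 1 counts in control arteries 1 to 4 and 40, 53, 70 and 59 counts in injured arteries 1 to 4, and its log2 fold change was 3.82 (standard error 0.47, edgeR adjusted p = 0.00151).

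The 3 kinases of the spindle checkpoint were called higher, as were 2 partners of the anaphase-promoting complex, Cdc20 and Ube2c. Ttk, also called MPS1, which recruits the checkpoint to unattached kinetochores, had 2, 1, 4 and 2 counts in control arteries 1 to 4 against 30, 37, 38 and 39 counts in injured arteries 1 to 4. The controls were near the limit of 3 counts, and the log2 fold change was 3.84 (standard error 0.40, edgeR adjusted p = 0.000808). Bub1b, or BUBR1, a subunit of the complex that inhibits the anaphase-promoting complex, rose from 0.536 ± 0.335 to 6.57 ± 2.31 CPM (mean ± SD, n = 4 each), with a log2 fold change of 3.60 (standard error 0.51, edgeR adjusted p = 0.00277). Bub1, the kinase that marks the centromere, had 4.83, 6.64, 5.41 and 2.57 CPM in control arteries 1 to 4 and 11.2, 14.00, 6.68 and 11.3 CPM in injured arteries 1 to 4. Its lowest injured artery, 6.68 CPM, was just above its highest control, 6.64 CPM, and its log2 fold change of 1.15 (standard error 0.33, edgeR adjusted p = 0.04999) was at the threshold. Dropping single arteries, Bub1 was called in 1 of 8 fits, the one without injured artery 3. Cdc20, the activator of the anaphase-promoting complex that the checkpoint holds back, had 2.67, 3.44, 3.88 and 2.29 CPM in control arteries 1 to 4 and 9.09, 9.72, 9.43 and 13.99 CPM in injured arteries 1 to 4, without overlap, and a log2 fold change of 1.78 (standard error 0.25, edgeR adjusted p = 0.00254). Ube2c, the ubiquitin-conjugating enzyme of that complex, was the most even member among the injured arteries, with 3.77, 3.84, 3.20 and 3.68 CPM in injured arteries 1 to 4 against 0.144, 0.328, 0.554 and 0.139 CPM in control arteries 1 to 4. Its log2 fold change was 3.60 (standard error 0.43, edgeR adjusted p = 0.00138).

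**Figure D2:**
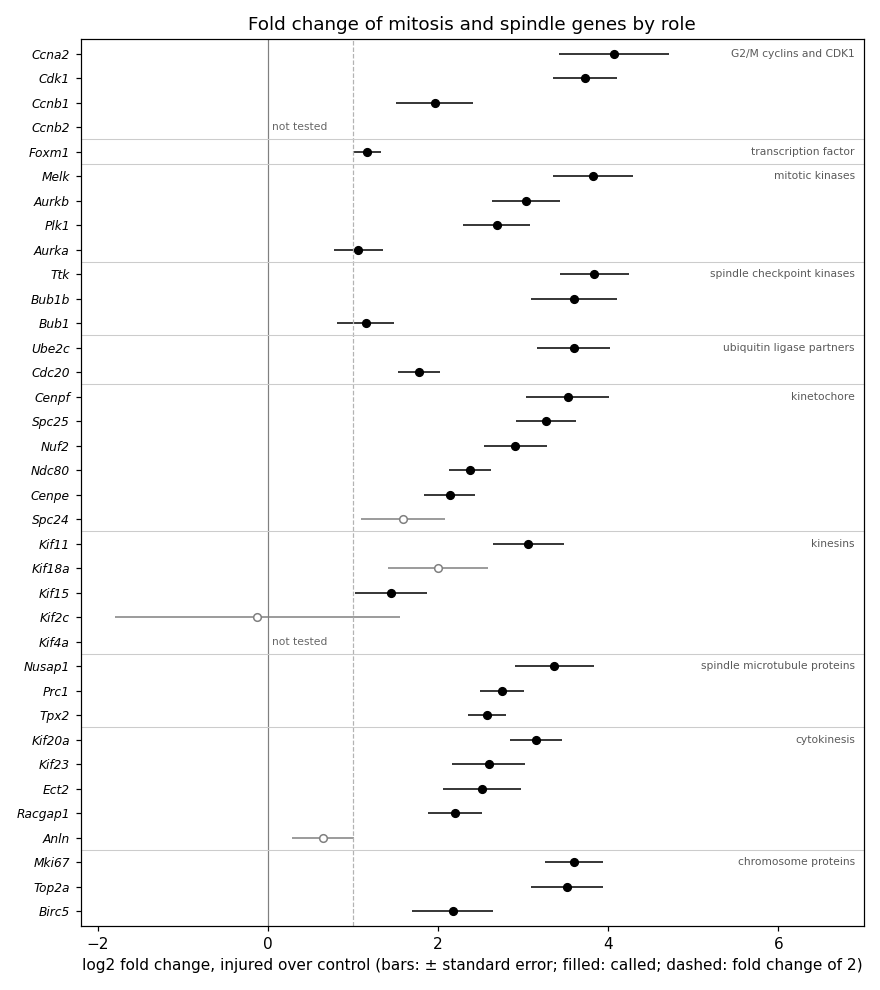
Points are the log2 fold changes of injured over control arteries from edgeR for 34 genes grouped by role, with bars of ± 1 standard error, and filled points passed both the FDR and the fold criteria. They range from -0.12 for Kif2c to 4.07 for Ccna2, and the open points are Spc24, Kif18a, Kif2c and Anln.

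Of the 6 kinetochore genes, 5 were called higher, with log2 fold changes of the 6 between 1.59 and 3.53. The NDC80 complex, made of 4 subunits, binds microtubules at the outer kinetochore. Spc25 had 0.164 to 0.360 CPM in the control arteries and 2.15 to 3.76 CPM in the injured arteries. Nuf2 had 0.432 to 1.11 CPM in the control arteries and 3.85 to 7.11 CPM in the injured arteries. Ndc80, the namesake subunit, had 0.656 to 1.08 CPM in the control arteries and 4.01 to 5.66 CPM in the injured arteries. None of them overlapped between the groups, and the log2 fold changes of Spc25, Nuf2 and Ndc80 were 3.27 (standard error 0.36, edgeR adjusted p = 0.000949), 2.91 (standard error 0.37, edgeR adjusted p = 0.00173) and 2.38 (standard error 0.25, edgeR adjusted p = 0.000786). Spc24, the partner of SPC25, had 1.30, 0.902, 1.32 and 0.417 CPM in control arteries 1 to 4 and 1.73, 4.35, 1.63 and 4.25 CPM in injured arteries 1 to 4, and its log2 fold change of 1.59 (standard error 0.49, edgeR adjusted p = 0.0617) was not called, though the groups did not overlap. Spc24 was called by DESeq2 (adjusted p = 0.0229), by edgeR with unscaled library totals and by edgeR without control artery 4 and injured artery 3, and in 0 of the 8 fits that dropped a single artery. Its injured arteries fell into a lower and a higher pair, 1.63 and 1.73 CPM against 4.25 and 4.35 CPM. Cenpf, a large coat protein of the kinetochore, had 0.576, 1.80, 1.87 and 0.556 CPM in control arteries 1 to 4 and 10.2, 18.9, 10.7 and 15.8 CPM in injured arteries 1 to 4 and a log2 fold change of 3.53 (standard error 0.49, edgeR adjusted p = 0.0026). Cenpe, the kinetochore kinesin that moves chromosomes to the spindle equator, had 2.05 to 3.88 CPM in the control arteries and 8.54 to 16.03 CPM in the injured arteries, with a log2 fold change of 2.14 (standard error 0.30, edgeR adjusted p = 0.00265).

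Among 5 other kinesins, motors that act on spindle microtubules, 2 were called higher. Kif11, or Eg5, which pushes the spindle poles apart, rose from 0.808 ± 0.464 to 6.81 ± 1.36 CPM (mean ± SD, n = 4 each), with a log2 fold change of 3.06 (standard error 0.42, edgeR adjusted p = 0.00244). Kif15, which can share that task, had 2.88, 2.87, 2.22 and 0.695 CPM in control arteries 1 to 4 and 5.62, 7.62, 4.60 and 5.81 CPM in injured arteries 1 to 4 and a log2 fold change of 1.45 (standard error 0.42, edgeR adjusted p = 0.0487). Dropping single arteries, Kif15 was called in 1 of 8 fits, the one without control artery 4, whose 0.695 CPM was the lowest level of Kif15. Kif18a, which limits the length of kinetochore microtubules, had 3, 2, 13 and 4 counts in control arteries 1 to 4 and 21, 38, 21 and 15 counts in injured arteries 1 to 4. Its log2 fold change of 2.00 (standard error 0.59, edgeR adjusted p = 0.0512) just missed the FDR threshold, and DESeq2 called it (adjusted p = 0.0211). Kif4a, a chromosome-bound kinesin of the midzone, had 0 counts in all 8 libraries. So did Cenpi, Smc1a and Stag2 of the other lists, named after their values were seen. Rad21, of cohesin like Smc1a and Stag2, had 111.8 to 122.1 CPM in the control arteries. Whether the deposited counting covered Kif4a was not tested, so its 0 sets no upper limit on its level.

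Kif2c, or MCAK, a kinesin that depolymerizes microtubules, did not follow the others. It had 0, 1, 7 and 535 counts in control arteries 1 to 4 and 74, 60, 355 and 72 counts in injured arteries 1 to 4. Control arteries 1 to 3 were thus close to 0 and every injured artery lay above them, but control artery 4 lay above every injured artery. The log2 fold change over all arteries was -0.12 (standard error 1.67, edgeR adjusted p = 0.969), and without control artery 4 it was 5.41 (standard error 1.02, edgeR adjusted p = 0.00633). The artery with the next highest level, injured artery 3 with 19.9 CPM, was also the one with the next highest sum of sympathetic neuron genes. Without both arteries, the log2 fold change was 4.58 (standard error 0.70, edgeR adjusted p = 0.00187). The part of those neuron transcripts in the Kif2c counts was not tested.

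The 3 genes of spindle microtubule proteins were called higher. Prc1, the crosslinker of the central spindle, had 2.59, 2.71, 3.81 and 2.36 CPM in control arteries 1 to 4 and 14.4, 24.95, 16.1 and 22.01 CPM in injured arteries 1 to 4. No control exceeded 3.81 CPM and no injured artery was below 14.4 CPM, and the log2 fold change was 2.75 (standard error 0.26, edgeR adjusted p = 0.000528). Tpx2, which activates Aurora A on the spindle, rose from 2.55 ± 0.563 to 15.2 ± 2.42 CPM (mean ± SD, n = 4 each), with a log2 fold change of 2.57 (standard error 0.23, edgeR adjusted p = 0.000456), the smallest adjusted p of the 34 genes. Nusap1, a microtubule-binding protein of the spindle, had 0.208 to 1.04 CPM in the control arteries and 4.27 to 8.56 CPM in the injured arteries and a log2 fold change of 3.37 (standard error 0.46, edgeR adjusted p = 0.00245).

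Of the 5 genes of cytokinesis, the final separation of the daughter cells, 4 were called higher. Kif20a, a kinesin of the central spindle, had 0.834 to 1.39 CPM in the control arteries and 6.57 to 13.4 CPM in the injured arteries. Kif23, the kinesin of the centralspindlin complex, had 0.864 to 2.62 CPM in the control arteries and 6.88 to 14.4 CPM in the injured arteries. Neither overlapped between the groups, and their log2 fold changes were 3.16 (standard error 0.31, edgeR adjusted p = 0.000595) and 2.60 (standard error 0.43, edgeR adjusted p = 0.00543). Ect2, the exchange factor that activates RhoA at the division plane, and Racgap1, the subunit of centralspindlin that binds it, had log2 fold changes of 2.52 and 2.20, with edgeR adjusted p-values of 0.00814 and 0.00324. Racgap1 was nearly even among the injured arteries, at 2.09, 2.61, 2.25 and 2.45 CPM in injured arteries 1 to 4, against 0.648, 0.246, 0.624 and 0.486 CPM in control arteries 1 to 4. Anln, anillin, an actin-binding scaffold of the contractile ring, was the exception with 4.32, 8.45, 3.19 and 3.34 CPM in control arteries 1 to 4 and 5.56, 10.3, 7.02 and 7.36 CPM in injured arteries 1 to 4. Control artery 2 lay above 3 of the injured arteries, and the log2 fold change of 0.65 (standard error 0.36, edgeR adjusted p = 0.265) was not called. Anln was called neither by DESeq2 (adjusted p = 0.26) nor in any of the 8 fits with an artery dropped.

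The 3 genes of chromosome proteins were called higher. Mki67, the Ki-67 protein that coats mitotic chromosomes and marks cycling cells, had 32, 51, 73 and 29 counts in control arteries 1 to 4 and 638, 688, 560 and 556 counts in injured arteries 1 to 4. In CPM it rose from 3.39 ± 1.47 to 41.3 ± 8.14 CPM (mean ± SD, n = 4 each). The log2 fold change was 3.60 (standard error 0.34, edgeR adjusted p = 0.000561), and every injured artery was above 31 CPM while every control was at most 5.06 CPM. Top2a, the topoisomerase that untangles replicated chromosomes, had 1.22, 3.44, 3.46 and 1.25 CPM in control arteries 1 to 4 and 23.1, 34.5, 21.3 and 28.4 CPM in injured arteries 1 to 4. The groups were far apart, and the log2 fold change was 3.51 (standard error 0.42, edgeR adjusted p = 0.0014). Birc5, survivin, a subunit of the chromosomal passenger complex with Aurora B, had 0.576, 0.328, 1.52 and 1.32 CPM in control arteries 1 to 4 and 2.75, 4.64, 5.33 and 4.42 CPM in injured arteries 1 to 4. Its controls spread between 0.328 and 1.52 CPM, and its log2 fold change of 2.17 (standard error 0.48, edgeR adjusted p = 0.0173) was lower than that of Aurkb and carried a larger error. Birc5 was called in 5 of the 8 fits that dropped an artery, not without control artery 1, injured artery 2 or injured artery 4, and not against a fold change of 2 (edgeR adjusted p = 0.118). The difference between these genes was not tested.

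The promoters of many of these genes share a short element, which is shown here as sequence alone. Its part in the rise after injury was not tested. The cell cycle homology region is the site that the MuvB complex binds, and it reads TTTGAA or TTCGAA. RefSeq promoter windows of the GRCr8 assembly, from 250 bases before to 50 bases after a start site, were matched by symbol for 30 of the 36 genes, in 31 windows. Aurkb, Ccna2, Foxm1, Racgap1, Tpx2 and Ube2c had no entry. TTTGAA, read on both strands and so as TTCAAA on the reverse strand, or the palindrome TTCGAA was centred within 100 bases of the start site in 20 of the 31 windows (64.5%), against 5.6% of 11117 windows of the genes tested and 8.99% of all 33469 windows. Of the 22 such matches, 17 lay on the strand of the gene and 5 on the reverse strand. The CCAAT box, bound by NF-Y and searched as CCAAT on both strands, was present anywhere in 20 of the 31 windows (64.5%), against 36.4% of the windows of the genes tested. A match to the cell cycle homology region anywhere in the window was present in 20 of the 31 windows (64.5%). Among the windows of the genes tested, 13.7% had such a match. Both elements, each counted anywhere in the window, occurred together in 15 of the 31 windows (48.4%). In the windows of the genes tested that share was 5.5%. A match is a sequence of letters and not a measured binding site. The 6 matches nearest to the start site follow, each as 30 bases in the direction of the gene with the match in capitals.
Ect2, chr2:111966612-111966641, minus strand: gcgtctgggtttTTTGAAtcggaggcggta
Kif4a, chrX:69761868-69761897, plus strand: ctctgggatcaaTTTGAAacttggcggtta
Bub1b, chr3:126017051-126017080, plus strand: ggagacgttaaaTTTGAAagttggcggccc
Cenpf, chr13:103760867-103760896, minus strand: ggccgcgggcagTTTGAAtcgctcgtgctg
Birc5, chr10:103572126-103572155, plus strand: ccgcccgcgggtTTTGAAttagggattgtg
Ttk, chr8:93634631-93634660, plus strand: gcagcggggaaaTTCAAAcgtgtttccgga

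The 6 windows all lie across or next to the annotated start, with the centre of the match between 5.5 bases before it and 6.5 bases after it. Ttk has the element on the reverse strand and the others on the strand of the gene. Of these 6 genes, Kif4a had no count and the other 5 were called higher, with log2 fold changes from 2.17 for Birc5 to 3.84 for Ttk. Called genes without a match in their window included Melk, Kif11 and Kif20a, with log2 fold changes of 3.82, 3.06 and 3.16, and Anln, which was not called, had 2 matches.

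**Figure D3:**
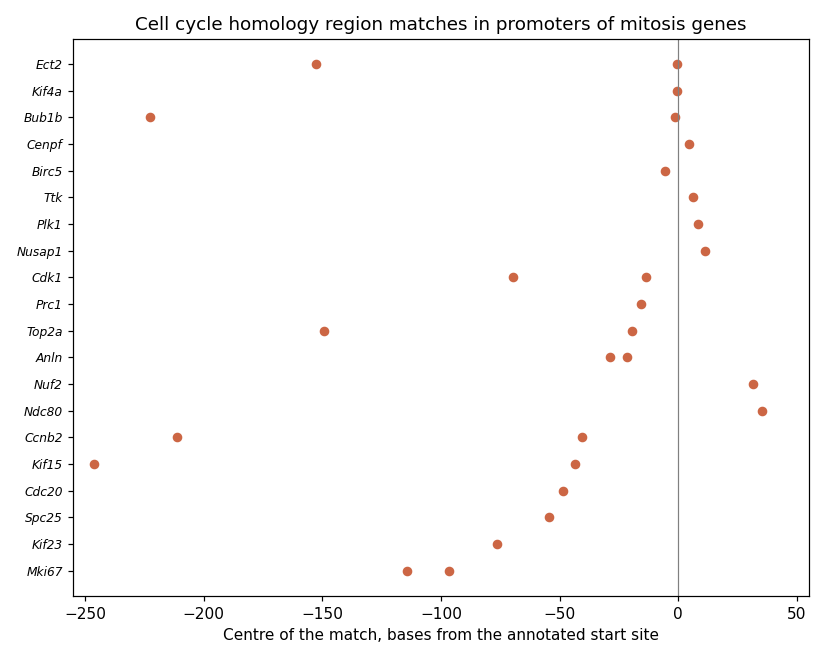
Rows are the 20 mitosis and spindle genes with a match to the cell cycle homology region in their RefSeq promoter window, and each point is the centre of a match in bases from the annotated start site. Of 28 matches, 22 lie within 100 bases of the start.

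Within the injured group, the arteries were not ranked evenly by these genes. Injured artery 2 had the highest CPM for 24 of the 36 genes, and it was the highest injured artery for 26% of all genes tested. Injured arteries 1 and 3 had the lowest CPM for 16 and 15 of the genes, against 22.3% and 31.3% of all genes tested. Injured artery 1 had the highest for none, against 21% of all genes tested. The highest injured artery had between 1.2 times (Ube2c) and 2.67 times (Spc24) the CPM of the lowest in the tested genes other than Kif2c, for which it had 4.58 times. Injured artery 2, with 13389945 counts, had a smaller library than injured arteries 1 and 3. In the control group, control artery 3 was the highest for 19 of the 36 genes, against 17.6% of all genes tested. Control artery 4 was the lowest control for 14 of the 36, against 40.1% of all genes tested. The median log2 CPM of the 36 genes was 0.04 ± 0.22 (SD, n = 4) in the control arteries and 2.70 ± 0.26 (SD, n = 4) in the injured arteries.

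**Figure D4:**
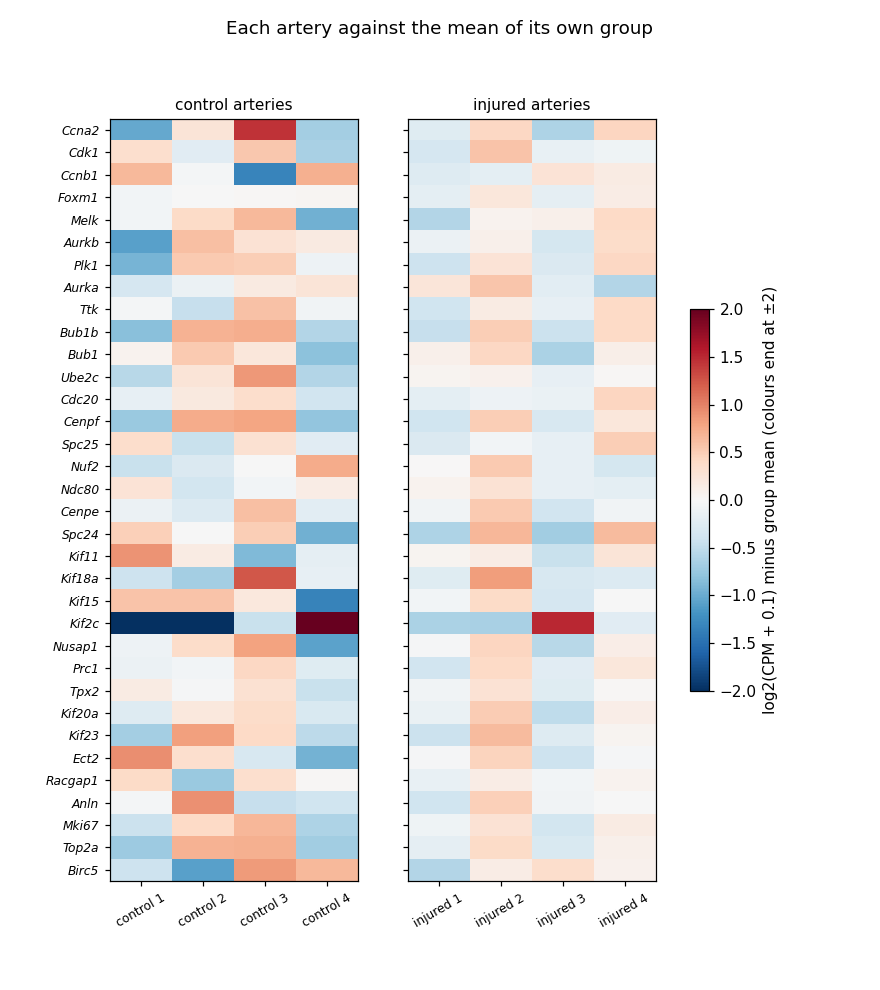
Each cell is the log2(CPM + 0.1) of a tested gene in an artery minus the mean of its own group, for the 4 control arteries on the left and the 4 injured arteries on the right. Injured artery 2 is above its group mean in most rows, and Kif2c departs from the pattern in control artery 4 and injured artery 3.

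The summed CPM of macrophage genes was also highest in injured artery 2, where Lyz2 alone had 1755 CPM, whereas Cd163, Emr1, Mrc1 and Msr1 were highest in injured artery 1. The 10 macrophage genes summed to 1496, 2380, 1546 and 1951 CPM in injured arteries 1 to 4, and to 224 to 311 CPM in the control arteries, and 8 of the 10 were called higher. The 8 T cell genes summed to 130 to 170 CPM after injury and 19.8 to 42.6 CPM in the controls, and Cd2 and Cd4 were the 2 called higher. Cd4 alone had 117 to 145 CPM after injury and 18.0 to 31.4 CPM in the controls, so these sums were mostly Cd4. The other 6 genes, among them Cd3d, Cd3e and Cd3g, had positive log2 fold changes but were not called. Among contractile smooth muscle genes 7 of 10 were called lower, and their sums were 11498 to 17961 CPM after injury and 18814 to 54362 CPM in the controls. Skeletal muscle genes summed to 301 to 1083 CPM after injury and 84.4 to 253 CPM in the controls, and 7 of the 9 were called higher. Schwann cell genes summed to 304 to 1473 CPM after injury and 57 to 1441 CPM in the controls. Endothelial and fibroblast genes overlapped between the groups in their sums, with 831 to 1181 against 883 to 2353 CPM and 15769 to 25763 against 10511 to 31549 CPM. Single genes of both lists differed in either direction. Of the 8 endothelial genes, 2 were called higher and 1 lower, and of the 7 fibroblast genes, 1 was called higher and 2 lower. B cell genes summed to 1.35 to 2.45 CPM after injury and 0 to 0.346 CPM in the controls, and myoblast genes to 1.57 to 7.45 CPM after injury and to 0 in all 4 controls, so that neither overlapped between the groups, and none of these genes passed the count filter. Red blood cell genes summed to at most 3.6 CPM in any artery. The part of these cell types in the mitosis gene counts was not tested.

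Other genes of mitosis were examined from a list that does not contain the 36. Of its 59 genes, 58 were found, 4 of them through a RefSeq synonym, 55 were tested and 32 were called higher, with none called lower by edgeR or DESeq2 and 1 lower at an unadjusted p under 0.05. Their median log2 fold change was 1.69. Kif14, a kinesin of cytokinesis, had 0, 1, 0 and 2 counts in control arteries 1 to 4 and 42, 39, 34 and 27 counts in injured arteries 1 to 4, and the highest log2 fold change, 5.23 (standard error 0.64, edgeR adjusted p = 0.00151). Troap, a spindle-associated protein, followed with 0.288, 0.246, 0.277 and 0.139 CPM in control arteries 1 to 4 and 5.14, 6.89, 3.59 and 5.07 CPM in injured arteries 1 to 4 and 4.40 (standard error 0.34, edgeR adjusted p = 0.000251). Neither Kif14 nor Troap reached the filter level of about 0.67 CPM in a control artery. They passed through the injured arteries alone and had to differ, as did other called genes of this list, which were not counted separately. Wee1, the kinase that inhibits CDK1 until mitosis, had the second lowest value, -0.67 (standard error 0.29, edgeR adjusted p = 0.158), and was not called. Zwint, a kinetochore protein with the lowest value of -1.24 (standard error 1.33, edgeR adjusted p = 0.569), had 1449 CPM in control artery 4 and 555 CPM in injured artery 3 against 46.8 to 82.8 CPM in the other arteries, and without control artery 4 its log2 fold change was 1.30 (edgeR adjusted p = 0.331). With injured artery 3 also left out it was -0.52 (standard error 0.13, edgeR adjusted p = 0.0138).

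The core subunits of the anaphase-promoting complex, the ligase that CDC20 and UBE2C serve, were not called. The list of 15 genes also held Fzr1, which is an activator of the complex like CDC20 and not a core subunit. Of the 15, 0 were called in either direction by edgeR or by DESeq2. At an unadjusted p under 0.05, edgeR placed 3 lower and 0 higher. Their log2 fold changes lay between -0.44 for Anapc10 and 0.24 for Anapc13. Anapc10 had 15.3, 13.4, 16.1 and 14.2 CPM in control arteries 1 to 4 and 11.6, 12.3, 10.1 and 9.41 CPM in injured arteries 1 to 4, where every injured artery was below every control, with -0.44 (standard error 0.15, edgeR adjusted p = 0.0762). Anapc1 was similar at -0.41 (standard error 0.13, edgeR adjusted p = 0.0643), and Anapc15 had 0.19 (standard error 0.22, edgeR adjusted p = 0.606). The tubulins, which form the spindle and also the microtubules of resting cells and neurons, were not called either, with 0 of 15 by edgeR, 0 at an unadjusted p under 0.05 and 0 of the 8 that DESeq2 tested. Their highest values were 0.59 (standard error 0.31, edgeR adjusted p = 0.232) for Tubb6 and 0.57 (standard error 0.29, edgeR adjusted p = 0.216) for Tube1, and their lowest were -1.39 (standard error 1.82, edgeR adjusted p = 0.649) for Tubb4a and -0.68 (standard error 1.19, edgeR adjusted p = 0.732) for Tubg2. Without control artery 4, the log2 fold changes of Tubb4a and Tubg2 were 2.85 and 2.04 (edgeR adjusted p = 0.169 and 0.0652), and with injured artery 3 also left out they were -0.02 and 1.15 (edgeR adjusted p = 0.978 and 0.079). Tubulin genes summed to 8189 CPM in control artery 4 and 5469 CPM in injured artery 3 against 916 to 1406 CPM in the other arteries. Without control artery 4, Tubb2b, Tubb3 and Tubb5 were called higher, and without injured artery 3 as well, Tubb2b and Tubb3. These tubulins were named after their values were seen.

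Of 11 tested subunits of condensin and cohesin, ring complexes that compact and hold chromosomes, 3 were called higher. Ncaph, a subunit of condensin I, had 0.216, 0.410, 0.901 and 0.347 CPM in control arteries 1 to 4 and 4.55, 6.53, 6.35 and 6.55 CPM in injured arteries 1 to 4. Ncapg, of the same complex, had 0.216, 0.656, 0.554 and 0.208 CPM in control arteries 1 to 4 and 3.35, 6.02, 2.53 and 3.60 CPM in injured arteries 1 to 4. Neither overlapped between the groups, and the log2 fold changes of Ncaph and Ncapg were 3.65 (standard error 0.42, edgeR adjusted p = 0.0012) and 3.23 (standard error 0.47, edgeR adjusted p = 0.00321). The third was Ncapd2, also of condensin I and named after its value was seen, at 1.15 (standard error 0.18, edgeR adjusted p = 0.00409). Ncapg2 of condensin II, likewise named after its value was seen, had 0.79 (standard error 0.18, edgeR adjusted p = 0.0205), under the fold criterion. Its groups did not overlap. The lowest were Ncaph2 of condensin II at -0.27 (standard error 0.09, edgeR adjusted p = 0.0813) and Rad21 of cohesin at -0.04 (standard error 0.09, edgeR adjusted p = 0.795), which turned positive with upper-quartile factors (0.034) and with unscaled library totals (0.13). Among 15 tested regulators of the MuvB and DREAM complexes, which repress these genes in resting cells and activate them in G2, 2 were called higher. Mybl2, B-MYB, the factor that joins MuvB in cycling cells, had 0.432, 0.246, 0.416 and 0.208 CPM in control arteries 1 to 4 and 3.23, 7.25, 5.45 and 6.14 CPM in injured arteries 1 to 4 and a log2 fold change of 4.04 (standard error 0.38, edgeR adjusted p = 0.000538). Rbl1, p107, had 1.66 (edgeR adjusted p = 0.00878). Ncapg and Mybl2 reached the filter level of about 0.67 CPM in no control artery, so they passed through the injured arteries alone and had to differ. Lin52 of MuvB and Tfdp2, a partner of E2F factors, had -0.83 (standard error 0.14, edgeR adjusted p = 0.00577) and -0.72 (standard error 0.14, edgeR adjusted p = 0.0107), under the fold criterion.

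**Figure D5:**
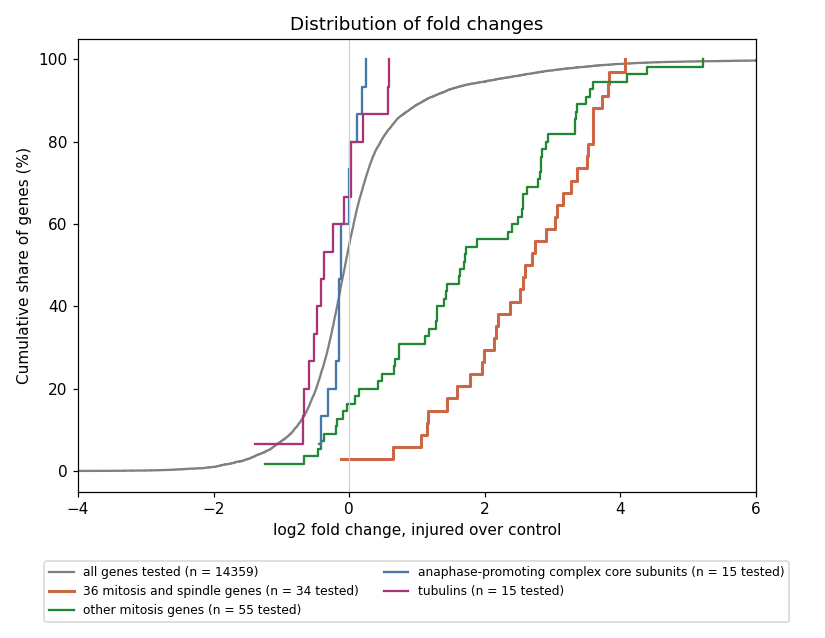
Lines give the cumulative share of genes (%) at or below each log2 fold change of injured over control arteries, for all 14359 genes tested, the 34 tested mitosis and spindle genes, and 3 other lists. The line of the 34 genes lies to the right, with a median of 2.65, that of 55 other mitosis genes has a median of 1.69, and the lines of the anaphase-promoting complex and the tubulins have medians of -0.12 and -0.37.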

How the data were processed

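mRNA was sequenced from 4 injured and 4 control carotid arteries. The authors deposited raw counts of reads per gene symbol, and the submitters' processing notes name HISAT2 2.0.4. The counting tool, strand setting and genome build are not given in the sources used here, so genes with overlapping or near-identical copies are uncertain. Each count column was assigned to an artery by its label.

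Analysis used edgeR 4.0.16 under R 4.3.3. After filterByExpr, 14359 of 37209 genes remained, and after TMM scaling the groups were compared by a quasi-likelihood test that had no covariate. Genes were called at a Benjamini-Hochberg FDR under 0.05 over all genes tested and a fold change above 2, the criteria of the study, which used DESeq. Standard errors were derived from the F statistic, and log2 CPM used a prior count of 2. The scripts were tested on simulated data. Alternatives were DESeq2 1.42.0, other scaling factors and filters, the replicate number as a block, omission of each artery, the FDR alone and glmTreat with a null fold change of 2. Leaving out control artery 4 and injured artery 3 together was chosen after seeing the data.

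The 36 genes, the other lists and the marker lists were chosen with earlier results of these data known. Symbols were matched without regard to case, then by RefSeq synonyms. Named were all 36 genes, the 2 highest and 2 lowest log2 fold changes of each other list, and the 6 promoter matches nearest to a start site. Gene levels were not compared per length.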

Additional observations from a re-analysis of the deposited data

Results flagged for a closer look

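Among 72 groups of 4 arteries, covering the genes with any count and the summed CPM, 6 held 1 artery far from the rest: the distance to its neighbour, divided by the range of the group, exceeded Dixon's 95% critical value. Chance alone gives about 1 in 20 groups, or 3.6 here.

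Kif2c was far from its group in both. In the control arteries the ratio was 0.987, with 37.2 CPM in control artery 4 against 0.485 CPM in the nearest control. In the injured arteries it was 0.901, with 19.9 CPM in injured artery 3 against 5.89 CPM in the nearest. These arteries also had the highest sums of sympathetic neuron genes, 9114 and 2266 CPM, and the part of those transcripts was not tested.

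Kif18a gave 0.845 in the control arteries, with 0.901 CPM in control artery 3 against 0.278 CPM, and 0.951 in the injured arteries, with 2.76 CPM in injured artery 2 against 1.26 CPM. For Cenpe the ratio was 0.861 in the control arteries, with 3.88 CPM in control artery 3 against 2.30 CPM. For Cdc20 it was 0.872 in the injured arteries, with 14.0 CPM in injured artery 4 against 9.72 CPM. The counts of Kif18a in the controls were at most 13.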

How the results depend on the processing

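Of the 30 genes called higher, 25 were called with every single artery dropped and with the replicate block, and no gene of the 36 was called lower under any setting. The number called ranged from 25 to 30 with an artery dropped, lowest without injured artery 2, and was 26 with the replicate block, which lost Ccnb1, Bub1, Aurka and Kif15. With at least 10 counts per library, 13 genes could be tested and 12 were called. The median log2 fold change of these 13 was 2.17, against 2.65 for the 34 genes of the main fit. Ccna2, Ttk, Melk and Cdk1, with 4.07, 3.84, 3.82 and 3.73 in the main fit, were among the genes left out. Library totals only shifted the all-gene median by 0.175 (log2) and the median of the 34 genes to 2.82.

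Correlations between the deviations of arteries sharing a replicate number were 0.301, 0.45, -0.52 and -0.416 for numbers 1 to 4, and not every artery correlated best with its own number, so the numbers were not treated as pairs. This does not show that the arteries were unpaired, and the negative values involve injured artery 3 and control artery 4. Under the replicate block, 1187 genes were called against 1562.

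Over all genes, 1007 were called with at least 10 counts per library (715 higher), 2468 by the FDR alone (918 lower), 661 against a null fold change of 2 (600 higher, 61 lower) and 2473 without control artery 4 and injured artery 3 (1800 higher, 673 lower). The replicate block gave 234 lower, and 169 with upper-quartile factors. Dropping single arteries gave 1142 to 2398 genes, 945 to 1817 higher and 197 to 581 lower, each highest without control artery 4. Other mitosis genes called higher numbered 10 with at least 10 counts per library and 19 against a null fold change of 2, instead of 32. Condensin and cohesin gave 1 with at least 10 counts, and MuvB and DREAM regulators 1 under both of these settings. Tubulins gave 0 to 3 with an artery dropped and 2 without both arteries.

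The log2 fold change of Kif2c ranged from -0.96 to 5.41 with an artery dropped (0.09, 0.10 and 0.02 without injured arteries 1, 2 and 4). It was 0.048 with upper-quartile factors, 3.95 and 3.97 with the block under TMM and upper-quartile factors, and 4.58 without both arteries. Dropping arteries singly, Zwint ranged from -3.07 to 1.30, Tubb4a from -4.26 to 2.85 and Tubg2 from -1.58 to 2.04, lowest without injured artery 3 and positive without control artery 4. Without both arteries, Zwint was -0.52 and Tubb4a -0.02. Tubg2 was 0.83 and 0.88 with the block under TMM and upper-quartile factors and 1.15 without both arteries. Rad21 was 0.034 with upper-quartile factors, 0.13 with library totals and 0.035 with both the block and upper-quartile factors. For these shifts the cause was not tested. At least 1 library had under 10 counts in 21 of the 34 tested genes, which limits their precision.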
